A study of Mus musculus with 21 samples.

Results

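D5-LSKCD201+ and D5-LSKCD201- cells were the positive and negative fractions of a day 5 sort that differ in the antigen CD201, and the comparison asks how the transcriptome of the CD201+ cells differs from that of the CD201- cells sorted on the same day of culture. Both came from mouse pluripotent stem cells (PSCs), of strain 129/ola by the labels of each library, while the study's methods name stem cells of 129/ola and of C57BL/6. These were induced in a self-assembling peptide hydrogel with embryoid bodies and then cocultured with OP9 stromal cells, a bone marrow stromal line, in medium with stem cell factor, IL-3 and Flt3 ligand. On day 5, lineage-negative, Sca-1+ and c-kit+ (LSK) cells were sorted as CD201+ or CD201-, with 3 libraries in each group. All 27968 genes of the table of sorted cells entered, and 13691 of them, which averaged 0.5 FPKM or more across these 6 libraries, were tested. FPKM, reads scaled by transcript length and library size, were provided by the authors. The same table held 3 libraries each of the undifferentiated PSCs (mESC, sorted on SSEA-1) and of LSKCD201+ cells of C57BL/6 fetal liver (FL) and adult bone marrow (BM), and their levels are set beside those of the D5 groups. These 15 libraries are part of 21 in the series. The study describes the replicates as biological, and the labels do not say whether each came from its own culture, so p-values measure the spread between these libraries, of which an unknown part may be technical. Neither D5 group is a clone or a purified cell type: each holds all cells that passed the gate.

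CD201, the endothelial protein C receptor encoded by Procr, is carried by hematopoietic stem cells and also by endothelium. In the embryo, the first stem cells emerge from hemogenic endothelium of arteries, where Notch and VEGF signals maintain the arterial state, and the transcription factors Runx1, Gfi1 and Gfi1b then shut down the endothelial program. In PSC cultures, cells that have left pluripotency pass through primitive streak and mesoderm before they reach that stage, so pluripotency, streak, endothelial and blood genes together place a sorted fraction along this route. In bulk libraries such as these, fewer cells of a type and less RNA per cell cannot be told apart.

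Library quality was examined before any gene. Genes above 0 FPKM numbered 18771 to 18949 in D5-LSKCD201+ and 20575 to 21502 in D5-LSKCD201-, and mitochondrial transcripts took 2.21% to 2.28% and 1.73% to 1.796% of FPKM. Replicate 2 of D5-LSKCD201- stood apart from its group. It differed at least 2-fold from replicates 1 and 3 in 541 and 587 genes, whereas those replicates differed from each other in 15 genes and pairs of D5-LSKCD201+ libraries in 17 to 29. In 534 genes it was at least 2-fold under the mean of the other two and in 16 at least 2-fold over it. The genes under it had a median transcript GC content of 56.4%, against 49.8% for all genes. In the decile of genes with the highest GC content the median deviation of this library was -0.32 on the log2 scale, and in the lowest decile 0.04. Results are therefore also given without this library where it matters.

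**Figure D1:**
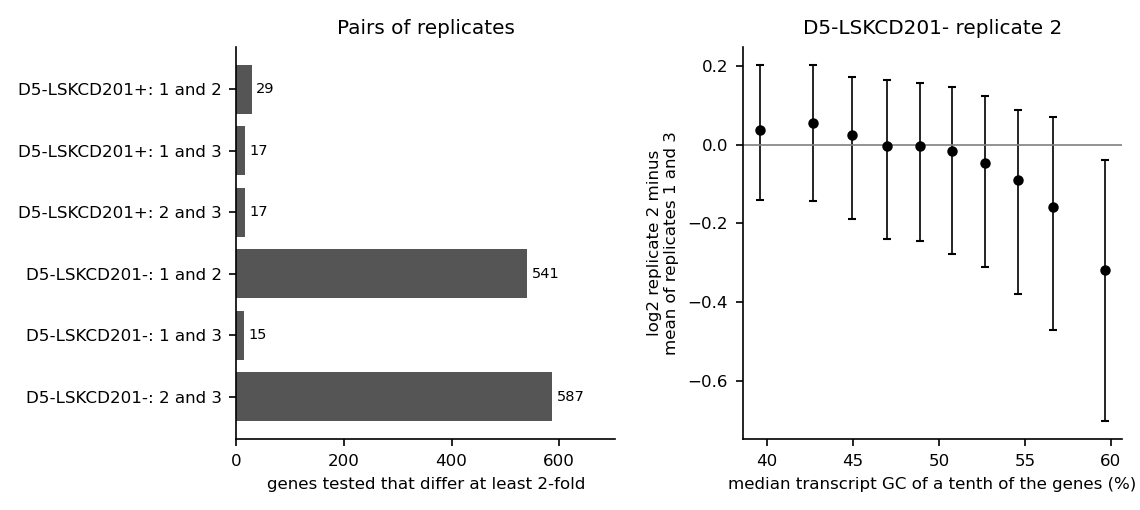
Left, bars give the number of tested genes that differ at least 2-fold between replicates, for each pair within a group, and right, points give the median and bars the quartiles of the log2 difference between D5-LSKCD201- replicate 2 and the mean of replicates 1 and 3, in deciles of genes by transcript GC content (%). Pairs with replicate 2 of D5-LSKCD201- differ in 541 and 587 genes and all other pairs in 15 to 29, and the median difference falls to -0.32 at the highest GC content.

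Between D5-LSKCD201+ and D5-LSKCD201-, 1475 genes rose and 1904 fell in D5-LSKCD201+ (limma on log2(FPKM + 1), with an adjusted p below 0.05 and a log2 fold change of 1 or more in size). They were 10.8% and 13.9% of the genes tested, or 24.7% in all, and these shares are the background for every list below. The median log2 fold change was -0.12 over all genes, 1.63 over those that rose and -1.55 over those that fell. Under quantile normalization the median of all genes became -0.01 and the split 1716 higher to 1599 lower. Large changes numbered 191 genes with a log2 fold change of 3 or more and 248 with -3 or less. The replicate values of the groups did not overlap in 73.6% of the genes tested, 31.6% with D5-LSKCD201+ above and 42.0% with it below. Without replicate 2 of D5-LSKCD201-, 1399 genes (10.3%) were called higher and 2013 (14.8%) lower, and of the genes first called, 1349 of 1475 and 1824 of 1904 were called again.

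**Figure D2:**
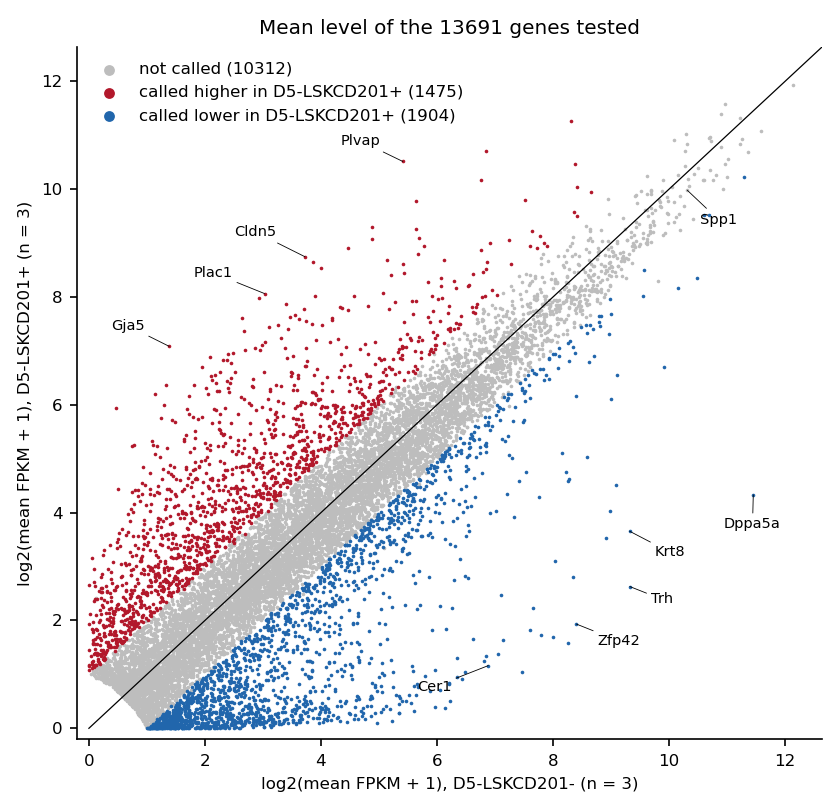
Mean level of each tested gene, as log2(mean FPKM + 1), in D5-LSKCD201- (horizontal axis) and D5-LSKCD201+ (vertical axis), 3 libraries each, with called genes coloured and the line of equal level in black. Of 13691 genes, 1475 lie in the higher and 1904 in the lower class, with Plvap and Gja5 far above the line and Dppa5a and Krt8 far below it.

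Genes known from endothelium were among the 15 largest rises. Gja5 (ENSMUSG00000057123, GRCm38 chromosome 3, 96798762 to 97092785), which encodes the arterial gap junction protein connexin 40, was at 132, 136 and 136 FPKM in D5-LSKCD201+ and at 1.78, 0.655 and 2.396 FPKM in D5-LSKCD201-. Plvap (ENSMUSG00000034845, chromosome 8, 71488102 to 71511752), a component of endothelial fenestrae, was at 1457, 1476 and 1454 FPKM in D5-LSKCD201+ and at 47.5, 27.7 and 49.5 FPKM in D5-LSKCD201-. In both genes every D5-LSKCD201+ library lay far above every D5-LSKCD201- library, and replicate 2 was the lowest of D5-LSKCD201-. Their log2 fold changes were 5.76 (adjusted p 1.3e-06, SE 0.24) and 5.15 (adjusted p 9.5e-07, SE 0.20). Cldn5, the endothelial tight junction claudin, stood at 429 ± 14.2 against 12.2 ± 2.26 FPKM (mean ± SD, n = 3), the angiopoietin receptor homolog Tie1 at 253 ± 8.19 against 6.65 ± 1.57 FPKM, and Icam2, an endothelial adhesion molecule, at 401 ± 10.5 against 13.5 ± 1.002 FPKM. Also among the 15 largest rises were Clec14a (5.04), the nitric oxide synthase Nos3 (4.85), the endothelin receptor Ednrb (4.76), the ectonucleotidase Entpd1 (5.07), the transglutaminase Tgm2 (4.704), the BMP antagonist Chrdl1 (4.71) and Pi16 (4.57). Entpd1 is known from vascular and immune cells, and it reached 8.42 FPKM in FL and 11.03 in BM.

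Genes named for the placenta were also among these 15. Prl3b1 (ENSMUSG00000038891, chromosome 13, 27242429 to 27249679), a placental lactogen, was at 64.7, 55.4 and 61.96 FPKM in D5-LSKCD201+ and at 0.235, 0.709 and 0.213 FPKM in D5-LSKCD201-, and Plac1, an X-linked placental gene, at 269.6, 262 and 269 FPKM in D5-LSKCD201+ and at 6.13, 7.87 and 7.46 FPKM in D5-LSKCD201-. Both were clearly separated between the groups, with log2 fold changes of 5.49 (adjusted p 2.2e-07, SE 0.15) and 5.04 (adjusted p 4.5e-08, SE 0.09). Their means were 0.0194 and 0.2197 FPKM in mESC, and in FL and BM Plac1 did not pass 0.587 FPKM. Gimap4, a GTPase of lymphocytes and endothelium, was at 193 ± 8.36 against 5.26 ± 0.434 FPKM (n = 3), and all 7 tested genes of the Gimap family, a family chosen after its values were seen, rose, with a median log2 fold change of 3.35.

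Genes known from pluripotent and from epithelial cells were among the 15 largest falls. Dppa5a (ENSMUSG00000060461, chromosome 9, 78367051 to 78368177), a developmental pluripotency gene, was at 15.02, 22.2 and 20.2 FPKM in D5-LSKCD201+ and at 2843, 2579 and 2991 FPKM in D5-LSKCD201-. Krt8 (ENSMUSG00000049382, chromosome 15, 101996710 to 102004342), a keratin of simple epithelia, was at 10.5, 12.4 and 11.9 FPKM in D5-LSKCD201+ and at 584, 734 and 599 FPKM in D5-LSKCD201-. Every D5-LSKCD201- library lay above every D5-LSKCD201+ library in both genes, and the log2 fold changes were -7.14 (adjusted p 6.0e-08, SE 0.14) and -5.66 (adjusted p 5.2e-08, SE 0.10). The others among the 15 included the hormone precursor Trh (-6.698), Utf1 (-6.69), Zfp42 (-6.48), the threonine dehydrogenase Tdh (-6.44), the Nodal co-receptor Tdgf1 (-6.298), the Nodal antagonists Cer1 (-5.72) and Lefty1 (-5.68), Dppa3 (-5.77), Nr0b1 (-5.57) and the epithelial genes Cldn6 (-5.78) and Epcam (-5.55). Some were also low in mESC: Krt8 was at 6.95 FPKM there, Cldn6 at 5.58 and Cer1 at 0.09702, against 639, 193 and 117 FPKM in D5-LSKCD201-. Trh stood at 278 FPKM in mESC, under the 641 of D5-LSKCD201-, while Dppa5a, Utf1, Zfp42 and Tdh were higher in mESC, at 4801, 548, 605 and 256 FPKM.

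Some genes were read in every library of a group and nearly absent from the other. Taking at least 1 FPKM in all 3 libraries as on and under 0.1 FPKM in all 3 as off, 18 genes were on in D5-LSKCD201+ alone and 175 in D5-LSKCD201- alone. With the off limit at 0.05 FPKM the numbers were 8 and 88, at 0.2 FPKM 58 and 345, and without replicate 2 of D5-LSKCD201- 27 and 213. Of the 175, 116 (66.3%) had a mean of at least 1 FPKM in mESC and 151 (86.3%) were under 1 FPKM in both FL and BM, against 81.1% and 16.3% of all genes tested. Those with the highest levels were the exchange factor Mcf2 (10.5 FPKM in D5-LSKCD201-), Zfp987 (8.21), the germ cell and pluripotency regulator Prdm14 (7.98), the keratin Krt42 (7.79) and Zscan4f (7.78), a gene of rare early-embryo-like PSCs. Of the 18 genes on in D5-LSKCD201+, 15 were under 1 FPKM in both FL and BM. Lyve1, the hyaluronan receptor of lymphatic and yolk sac endothelium, was at 8.84, 6.74 and 8.15 FPKM in D5-LSKCD201+ and at 0, 0.0855 and 0.0184 FPKM in D5-LSKCD201-, and the matrix metalloproteinase Mmp3 at 5.96, 4.87 and 5.16 FPKM in D5-LSKCD201+ and at 0, 0 and 0 FPKM in D5-LSKCD201-. Mmp3 was listed at 0 in all 3 D5-LSKCD201- libraries. Next in level were Clca2 (4.15 FPKM), the angiotensin receptor Agtr2 (3.35), the cytochrome Cyp1a1 (3.27) and Tnfrsf26 (2.94), of which Tnfrsf26 alone passed 1 FPKM in FL (5.26) and BM (15.5).

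Genes of endothelium in general were read from a list of 37, which holds surface receptors, junction proteins and transcription factors. All 37 were tested, and 35 were called higher and none lower, with a median log2 fold change of 3.57 against -0.12 over all genes. The replicate values of the groups were separate for all 37, with D5-LSKCD201+ above. Summed over the list, FPKM ran from 6961 to 7036 per library in D5-LSKCD201+ and from 456 to 484 in D5-LSKCD201-, beside 117 to 124 in mESC, 1069 to 1239 in FL and 1287 to 1323 in BM. Cdh5 (ENSMUSG00000031871, chromosome 8, 104088915 to 104144511), the VE-cadherin of endothelial junctions, was at 67.6, 73.6 and 71.2 FPKM in D5-LSKCD201+ and at 2.55, 2.23 and 2.16 FPKM in D5-LSKCD201-. Pecam1 (ENSMUSG00000020717, chromosome 11, 106654216 to 106750628), the junction molecule CD31, was at 259.98, 269 and 251 FPKM in D5-LSKCD201+ and at 22.8, 23.8 and 22.1 FPKM in D5-LSKCD201-. Both genes were high in every D5-LSKCD201+ library and low, though not absent, in every D5-LSKCD201- library. The log2 fold changes were 4.44 (adjusted p 4.5e-08, SE 0.08) and 3.45 (adjusted p 4.2e-08, SE 0.05). Pecam1 was at 14.3 FPKM in mESC, where Cdh5 was at 0.0383. Tek, the angiopoietin receptor, rose by 4.07 on the log2 scale and Vwf, the von Willebrand factor of endothelium and platelets, by 1.88.

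Of the transcription factors of the list, Sox17 alone was not called. The ETS factors Fli1 (55.9 ± 0.975 against 3.81 ± 0.732 FPKM, log2 fold change 3.57) and Ets1 (64.7 ± 1.88 against 5.75 ± 0.8098 FPKM, 3.29) rose, as did the SOX factors Sox7 (3.53) and Sox18 (4.47). Etv2, the ETS factor that starts the endothelial and blood program and is then shut off, was at 43.2, 42.2 and 42.8 FPKM in D5-LSKCD201+ and at 5.96, 5.496 and 6.18 FPKM in D5-LSKCD201-. Sox17, an arterial and endodermal SOX factor, was at 128, 115 and 121 FPKM in D5-LSKCD201+ and at 89.8, 105 and 101 FPKM in D5-LSKCD201-. Etv2 was high in all D5-LSKCD201+ libraries, whereas the Sox17 levels were close, with D5-LSKCD201+ slightly above. Etv2 rose by 2.67 (adjusted p 1.6e-07, SE 0.07), and the Sox17 difference was 0.300 (adjusted p 0.00981, SE 0.08), short of the fold threshold. Etv2 was at 2.095 FPKM in mESC, 0.0181 in FL and listed at 0 in all BM libraries, and both genes were chosen after their values were seen. Bmp6, the other gene of the list that was not called, was at 1.42, 1.297 and 1.39 FPKM in D5-LSKCD201+ and at 0.111, 0.451 and 0.254 FPKM in D5-LSKCD201- and was called higher without replicate 2 (1.005).

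Promoters of 19 of the 37 genes were in the RefSeq table for GRCm38.p6. In the 250 bases before the start, on both strands, the ETS motif AGGAAGT was found in 3 of these 19, in 12.4% of genes called higher with a promoter, 7.84% of those called lower, 8.39% of all genes tested and 8.796% of all promoters in the table, and in 2 of 20 naive pluripotency genes with a promoter. The octamer motif ATGCAAAT was found in 2 of 20 naive pluripotency genes with a promoter, 2.31% of genes called lower, 1.69% of those called higher, 1.55% of all genes tested and 1.81% of all promoters. Both motifs were chosen after the values were seen, they do not overlap each other, and a match is a description of the letters only. The stretches of 60 bases around the matches in the endothelial genes Egfl7 (chr2:26580839-26580898, plus strand), Eng (chr2:32646515-32646574, plus strand) and Flt1 (chr5:147726032-147726091, minus strand), and in the pluripotency genes Zfp42 (chr8:43307162-43307221, minus strand) and Spp1 (chr5:104435956-104436015, plus strand), are given 5′ to 3′ along the gene's strand as examples of promoters in the endothelial and naive pluripotency lists that hold a motif, with the motif or its reverse complement in capitals.
Egfl7: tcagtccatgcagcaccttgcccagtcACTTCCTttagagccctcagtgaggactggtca
Eng: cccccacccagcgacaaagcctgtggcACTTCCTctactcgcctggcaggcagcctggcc
Flt1: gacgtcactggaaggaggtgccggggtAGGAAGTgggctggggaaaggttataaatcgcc
Zfp42: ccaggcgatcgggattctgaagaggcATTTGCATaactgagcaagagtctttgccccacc
Spp1: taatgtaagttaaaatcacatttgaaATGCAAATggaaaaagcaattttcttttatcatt

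Of these 5 genes, Egfl7, a secreted endothelial factor, was at 495 ± 14.02 against 53.8 ± 2.67 FPKM (n = 3), Eng, the TGF-beta co-receptor endoglin, at 202 ± 5.35 against 10.8 ± 0.962 FPKM, and Flt1, a VEGF receptor, at 71.1 ± 1.76 against 25.8 ± 2.898 FPKM, and all 3 rose (3.18, 4.11 and 1.43). Zfp42 fell. Spp1, which encodes osteopontin and is high in PSCs, was at 1143, 939 and 951 FPKM in D5-LSKCD201+ and at 1044, 1722 and 1052 FPKM in D5-LSKCD201-, with overlapping values and no call (-0.297, adjusted p 0.224, SE 0.20). Egfl7, Flt1 and Spp1 were shown because of the motif and lie outside the rule for named genes.

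Markers of arteries and of veins and lymphatics were read separately, since hemogenic endothelium is arterial. Of 21 arterial genes tested, 16 were called higher and none lower (median log2 fold change 2.41, 2.17 without replicate 2 of D5-LSKCD201-). Efnb2, the arterial ephrin ligand, was at 12.6, 12.9 and 12.8 FPKM in D5-LSKCD201+ and at 2.02, 0.823 and 2.07 FPKM in D5-LSKCD201-. Gja4, connexin 37, was at 110.4, 106 and 110.1 FPKM in D5-LSKCD201+ and at 4.47, 4.27 and 4.74 FPKM in D5-LSKCD201-. Neither gene overlapped between the groups, and Efnb2 was lowest in replicate 2 of D5-LSKCD201-. They rose by 2.42 (adjusted p 3.9e-05, SE 0.20) and 4.32 (adjusted p 3.3e-08, SE 0.06). The growth factor carrier Igfbp3 (617 ± 3.69 against 49.1 ± 4.196 FPKM), the hypoxia factor Epas1 (25.3 ± 1.15 against 1.68 ± 0.984 FPKM) and Mecom (22.8 ± 2.84 against 2.42 ± 0.769 FPKM), a zinc finger factor of hemogenic endothelium and stem cells, rose as well. Genes of this list that were not called were Unc5b, Cxcr4, Jag1, Sox17 and Cxcl12.

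Venous and lymphatic genes rose beside the arterial ones: 8 of 11 tested were called higher and 3 lower. Ephb4, the venous receptor of Efnb2, was at 72.1, 72.9 and 69.5 FPKM in D5-LSKCD201+ and at 17.1, 6.998 and 18.2 FPKM in D5-LSKCD201-. Nr2f2, the orphan receptor COUP-TFII that specifies veins, was at 7.76, 8.88 and 7.91 FPKM in D5-LSKCD201+ and at 1.16, 0.612 and 0.897 FPKM in D5-LSKCD201-. All D5-LSKCD201+ libraries were above all D5-LSKCD201- libraries in both genes, and their log2 fold changes were 2.37 (adjusted p 0.000421, SE 0.31) and 2.29 (adjusted p 5.6e-06, SE 0.13). The apelin receptor Aplnr (111 ± 5.35 against 12.6 ± 2.53 FPKM), the scavenger receptors Stab1 (3.94) and Stab2 (1.54), Nrp2 (2.43) and Flt4 (3.48) rose too. The 3 that fell were podoplanin (Pdpn, 1.64 ± 0.304 against 17.9 ± 0.673 FPKM), the chemokine scavenger Ackr3 (0.765 ± 0.1201 against 6.62 ± 0.387 FPKM) and Bmp4 (10.1 ± 0.573 against 27.97 ± 1.56 FPKM), genes that are not restricted to endothelium. In FL and BM, the list summed to 3.52 to 5.402 and 3.52 to 6.31 FPKM per library, against 279 to 291 in D5-LSKCD201+.

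**Figure D3:**
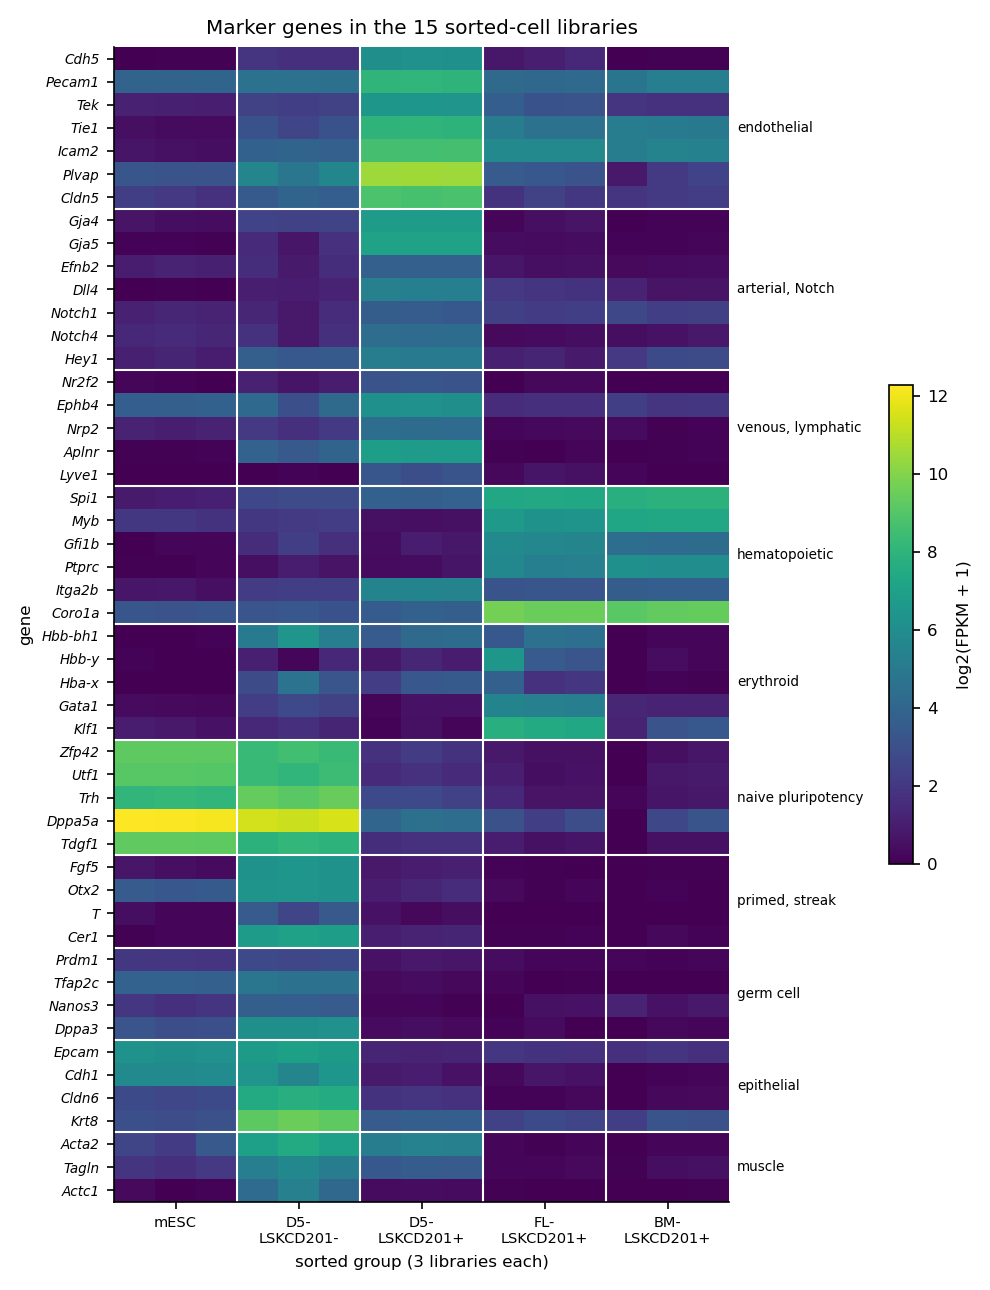
Level of marker genes, as log2(FPKM + 1), in the 15 libraries of sorted cells (columns, 3 per group), grouped by the list each gene came from. Averaged over each list, endothelial, arterial and venous genes are highest in D5-LSKCD201+. Pluripotency, primed, germ cell and epithelial genes are on average high in D5-LSKCD201- and low in D5-LSKCD201+. Single genes of a list can depart from its average.

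The Notch pathway transmits a signal between neighbouring cells: Delta and Jagged ligands bind Notch receptors, proteases release the receptor's intracellular part, and this acts with Rbpj on target genes such as those of the Hey and Hes families. Of 33 pathway genes tested, 14 were called higher and 3 lower (13 and 5 without replicate 2 of D5-LSKCD201-), with a median log2 fold change of 0.58. Among ligands, Dll4 (ENSMUSG00000027314, chromosome 2, 119321186 to 119335962), the ligand of arterial endothelium, was at 39.9, 38.8 and 39.1 FPKM in D5-LSKCD201+ and at 1.07, 0.999 and 1.35 FPKM in D5-LSKCD201-. Dll3, a divergent ligand of early embryonic tissues, was at 0.335, 0.493 and 0.581 FPKM in D5-LSKCD201+ and at 16.4, 13.97 and 18.7 FPKM in D5-LSKCD201-. The ligands lay in opposite order, Dll4 high in D5-LSKCD201+ and Dll3 high in D5-LSKCD201-, with no overlap in either. The log2 fold changes were 4.24 (adjusted p 8.3e-08, SE 0.09) and -3.56 (adjusted p 7.3e-07, SE 0.13). Jag2 rose (3.53 ± 0.171 against 1.07 ± 0.359 FPKM, 1.14), and Jag1 was at 4.88 ± 0.7301 against 6.99 ± 1.38 FPKM with no call (-0.43). Dll1 was called higher (1.08, adjusted p 0.000751, SE 0.16) but not without replicate 2 (0.92).

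Of the 4 receptors, Notch1 and Notch4 were called higher, and Notch2 and Notch3 were not called. Notch1 was at 11.2, 10.9 and 9.61 FPKM in D5-LSKCD201+ and at 1.49, 0.784 and 1.91 FPKM in D5-LSKCD201-, and Notch4, the receptor of endothelium, at 20.04, 18.7 and 19.5 FPKM in D5-LSKCD201+ and at 2.42, 0.814 and 2.13 FPKM in D5-LSKCD201-. Notch2 was at 0.535, 0.677 and 0.617 FPKM in D5-LSKCD201+ and at 2.78, 0.921 and 2.15 FPKM in D5-LSKCD201-, and Notch3 at 0.942, 1.18 and 1.05 FPKM in D5-LSKCD201+ and at 3.08, 0.964 and 3.24 FPKM in D5-LSKCD201-. Notch1 and Notch4 were higher in all D5-LSKCD201+ libraries, Notch2 was higher in all D5-LSKCD201- libraries, Notch3 overlapped in replicate 2 of D5-LSKCD201-, and that library was the lowest of its group for all 4. Notch1 and Notch4 rose by 2.301 (adjusted p 3.0e-05, SE 0.18) and 2.92 (adjusted p 2.9e-05, SE 0.23). Notch2 and Notch3, chosen after their values were seen, had differences of -0.82 (adjusted p 0.0175, SE 0.24) and -0.66 (adjusted p 0.0793, SE 0.29), short of a call, and without replicate 2 both were called lower (-1.101 and -1.02). With all libraries and a pseudocount of 0.1, Notch2 was called lower too (-1.41). Of the target genes, Hey1 was at 34.5, 33.6 and 33.8 FPKM in D5-LSKCD201+ and at 12.1, 9.48 and 10.2 FPKM in D5-LSKCD201- and Nrarp, a feedback inhibitor, at 104 ± 2.69 against 12.4 ± 1.61 FPKM. Hey1 was separate between the groups and rose by 1.599 (adjusted p 6.1e-06, SE 0.09), and Nrarp by 2.97. Hes1 was at 100.04 ± 6.23 against 127 ± 15.5 FPKM with no call (-0.33) and in BM at 1025 FPKM. The DNA-binding partner Rbpj fell (5.98 ± 0.488 against 16.5 ± 3.55 FPKM, -1.304, adjusted p 0.000279, SE 0.16), as did the ubiquitin ligase Dtx1 (-3.17), while the fringe enzyme Mfng (3.59) and the protease genes Adam10 (2.18) and Aph1a (1.61) rose.

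VEGF and angiopoietin signalling drives the growth of vessels, and its receptors and ligands were read as one list. Of 16 genes tested, 9 were called higher and none lower. These were the VEGF receptors Kdr, Flt1 and Flt4, the co-receptors Nrp1 and Nrp2, the angiopoietin receptors Tek and Tie1, the apelin receptor Aplnr and 1 ligand, Vegfc. All 9 were already counted in the endothelial, arterial or venous and lymphatic lists, and the genes found in this list alone were not called. Kdr (ENSMUSG00000062960, chromosome 5, 75932826 to 75978458), the receptor also called Flk1, was at 143, 134 and 133 FPKM in D5-LSKCD201+ and at 7.45, 5.72 and 7.69 FPKM in D5-LSKCD201-. Vegfc was at 49.2, 66.9 and 64.3 FPKM in D5-LSKCD201+ and at 4.603, 2.92 and 4.74 FPKM in D5-LSKCD201-. Both were high in D5-LSKCD201+ with no overlap, and rose by 4.12 (adjusted p 1.7e-07, SE 0.11) and 3.596 (adjusted p 2.9e-06, SE 0.18). The ligand Vegfa was at 20.97, 22.8 and 22.3 FPKM in D5-LSKCD201+ and at 34.5, 13.6 and 32.7 FPKM in D5-LSKCD201-. Its values overlapped, with replicate 2 of D5-LSKCD201- under all D5-LSKCD201+ libraries, and it was not called (-0.17, adjusted p 0.657, SE 0.32). Vegfb (6.94 ± 1.11 against 8.37 ± 2.46 FPKM) was not called either.

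The TGF-beta superfamily includes BMPs, TGF-beta and Nodal, and Nodal with its antagonists Lefty1 and Lefty2 patterns the epiblast. Of 31 genes tested, 7 were called higher and 11 lower, with a median log2 fold change of -0.02, and without replicate 2 of D5-LSKCD201- these were 8 and 11 with a median of -0.21. Nodal (ENSMUSG00000037171, chromosome 10, 61417971 to 61425338) was at 0.404, 0.555 and 0.644 FPKM in D5-LSKCD201+ and at 36.4, 37.2 and 40.5 FPKM in D5-LSKCD201-. Lefty1 was at 1.37, 1.81 and 1.59 FPKM in D5-LSKCD201+ and at 128, 131 and 135 FPKM in D5-LSKCD201-. Both were high in every D5-LSKCD201- library and low in D5-LSKCD201+, and fell by 4.67 (adjusted p 7.8e-08, SE 0.10) and 5.68 (adjusted p 3.3e-08, SE 0.08). Lefty2 (-5.43), Tdgf1 and Gdf3 (-4.73) fell with them. Nodal was at 29.3 FPKM in mESC and 0.05096 in FL. Among receptors, Eng was at 208, 199 and 198 FPKM in D5-LSKCD201+ and at 11.1, 9.66 and 11.5 FPKM in D5-LSKCD201-, and Acvrl1, the endothelial receptor ALK1, at 57.9, 59.5 and 60.7 FPKM in D5-LSKCD201+ and at 2.297, 1.86 and 2.500 FPKM in D5-LSKCD201-. These were separate with D5-LSKCD201+ above, and rose by 4.11 (adjusted p 4.5e-08, SE 0.07) and 4.23 (adjusted p 9.1e-08, SE 0.09). Tgfbr2 (3.55), Tgfbr3 (1.95) and the ligand Tgfb1 (1.61) rose also. Of the BMP ligands, Bmp4 and Bmp7 fell (-1.38 and -1.71), and Bmp2 was called higher (1.08, adjusted p 0.000532, SE 0.15) but not without replicate 2 (0.91). Id1, Id2 and Id3, targets of BMP signals, were at 172, 96.8 and 329.5 FPKM in D5-LSKCD201+, against 111, 50.99 and 223 FPKM in D5-LSKCD201-, short of the fold threshold, and the inhibitor Smad6 rose (1.83). Without replicate 2 of D5-LSKCD201-, or with FPKM rescaled to an equal sum, Id2 was called higher (1.01 and 1.01). The Id genes, Smad6 and Bmp7 were chosen after their values were seen.

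**Figure D4:**
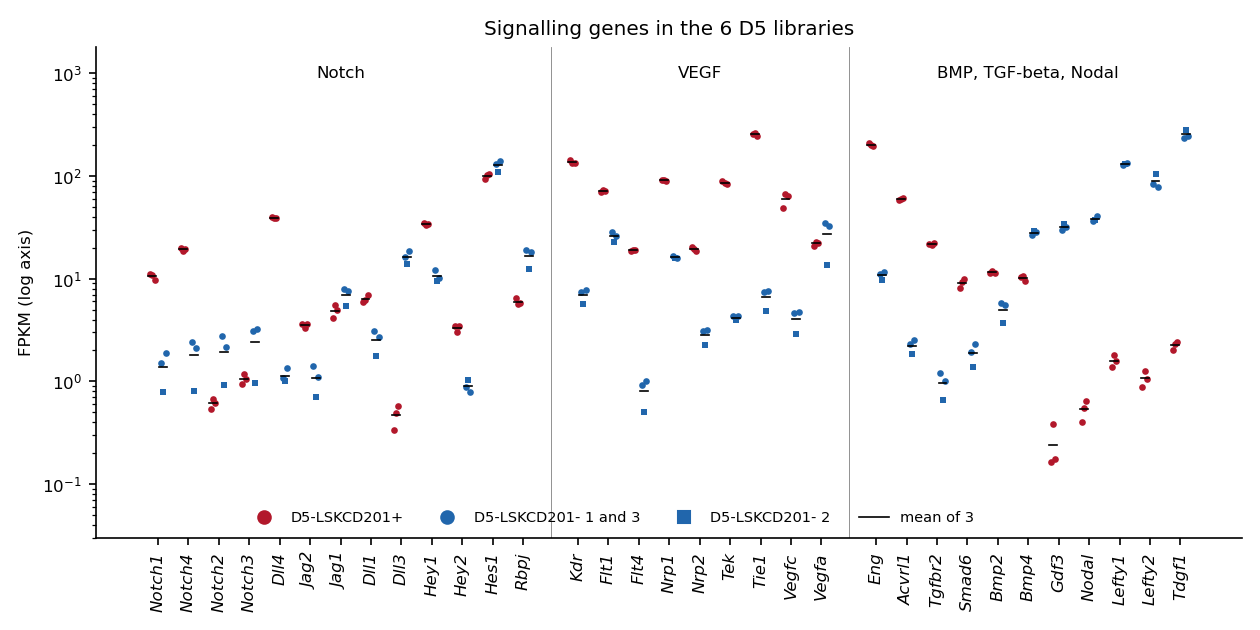
FPKM (log axis) of Notch, VEGF and BMP, TGF-beta and Nodal genes in each of the 6 D5 libraries, with a bar at the mean of each group and replicate 2 of D5-LSKCD201- drawn as a square. Dll4, Notch4, Kdr, Eng and Acvrl1 lie higher in D5-LSKCD201+, Dll3, Nodal, Lefty1 and Tdgf1 lie lower, and for Notch2, Notch3 and Vegfa the square sits below the other D5-LSKCD201- points.

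Transcription factors of blood formation were mixed. Of 32 tested, 14 were called higher and 4 lower (12 and 3 without replicate 2 of D5-LSKCD201-), with a median log2 fold change of 0.57. Those that rose included Fli1 and Erg (3.13), which also belong to endothelium, and the regulators of early blood and stem cells Lmo2 (22.8 ± 3.47 against 9.59 ± 1.24 FPKM, 1.16), Lyl1 (3.34), Gata2 (2.42), Tal1 (1.98), Meis1 (1.21) and Hoxb4 (1.28). Hhex was called higher (1.01) but not without replicate 2 of either group (0.997 and 0.99). Runx1, the factor that blood emergence needs, was called lower (1.797 ± 0.353 against 5.39 ± 0.899 FPKM, -1.19, adjusted p 0.000309, SE 0.15). Spi1 (ENSMUSG00000002111, chromosome 2, 91082389 to 91115756), which encodes PU.1 of myeloid and stem cells, was at 13.1, 12.3 and 13.5 FPKM in D5-LSKCD201+ and at 5.39, 6.13 and 6.18 FPKM in D5-LSKCD201-. Its values did not overlap, and it passed the thresholds narrowly (1.02, adjusted p 4.0e-05, SE 0.09), a call lost without D5-LSKCD201+ replicate 3 or D5-LSKCD201- replicate 1 (0.99 and 0.96). In FL and BM it was at 166 and 231 FPKM. Myb (ENSMUSG00000019982, chromosome 10, 21124934 to 21160984), which definitive hematopoiesis needs, was at 0.488, 0.3998 and 0.457 FPKM in D5-LSKCD201+ and at 2.99, 3.22 and 3.73 FPKM in D5-LSKCD201-. Gfi1b, a repressor of endothelial genes in emerging blood cells, was at 0.3103, 0.966 and 0.714 FPKM in D5-LSKCD201+ and at 2.08, 3.86 and 2.197 FPKM in D5-LSKCD201-. These 2 genes lay lower in all D5-LSKCD201+ libraries, and Gfi1b was highest in replicate 2 of D5-LSKCD201-. Myb fell by 1.57 (adjusted p 8.3e-06, SE 0.10) and stood at 84.6 FPKM in FL. Gfi1b was called lower (-1.15, adjusted p 0.002805, SE 0.22) but not without replicate 2 (-0.94) or without D5-LSKCD201+ replicate 1 (-0.98). Its relative Gfi1, chosen after its values were seen, was at 0.938 ± 0.4602 against 1.54 ± 0.3500 FPKM in the D5 groups and 55.8 FPKM in FL. Mycn fell too (31.2 ± 1.35 against 155 ± 20.7 FPKM, -2.27).

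Genes that blood cells share stood under FL and BM in sum, at 135 to 152 FPKM per library in D5-LSKCD201- and 704 to 724 in D5-LSKCD201+, against 3343 to 3861 in FL and 4602 to 5006 in BM. Ptprc, which encodes the pan-leukocyte antigen CD45, was at 0.305, 0.321 and 0.602 FPKM in D5-LSKCD201+ and at 0.419, 0.935 and 0.545 FPKM in D5-LSKCD201-, against 43.5 FPKM in FL and 66.8 in BM. Coro1a, an actin regulator of leukocytes, was at 12.2 ± 1.06 against 8.41 ± 0.782 FPKM in the D5 groups and 771 FPKM in FL. Neither was called. Of the pan-leukocyte list, 24 were tested, 10 were called higher and 1 lower. Arhgdib was at 338 ± 5.51 against 36.1 ± 4.16 FPKM and the tetraspanin Cd53 at 22.4 ± 0.548 against 0.893 ± 0.395 FPKM, and both rose (3.196 and 3.65). Itga2b, the integrin CD41 of megakaryocytes and early hematopoietic cells, was at 45.6, 45.4 and 44.4 FPKM in D5-LSKCD201+ and at 3.51, 3.92 and 3.92 FPKM in D5-LSKCD201-. It was far higher in D5-LSKCD201+ (log2 fold change 3.27, adjusted p 8.6e-08, SE 0.07) and stood at 8.496 FPKM in FL. Of a list of 9 lineage antigens that included Ptprc, Ptprc alone passed the filter on low values. Among 15 cytokine receptors tested, 6 were called higher and none lower. They included Il3ra (5.45 ± 0.494 against 2.202 ± 0.112 FPKM) its partners Csf2rb (17.5 ± 0.357 against 0.845 ± 0.0852 FPKM), the beta chain shared with other cytokine receptors, and Csf2rb2 (2.27), the beta chain specific to IL-3, the erythropoietin receptor Epor (2.04), Il2rg (4.39) and Ifngr1 (2.33). The Il3ra call was lost without D5-LSKCD201+ replicate 1 or 3 or D5-LSKCD201- replicate 1 (0.96, 0.996 and 0.98). Flt3, whose ligand was in the medium, was under the filter at 0.1599 and 0.346 FPKM. Of the Hox genes, whose clusters set position along the body axis, 5 of 6 tested Hoxb genes rose, among them Hoxb2 (11.5 ± 0.822 against 4.33 ± 0.0899 FPKM) and Hoxb7 (4.76 ± 0.312 against 0.164 ± 0.118 FPKM), and of 6 tested Hoxa genes Hoxa13 rose (2.12). Without replicate 2 of D5-LSKCD201-, 4 Hoxb genes were called higher, Hoxb8 no longer (0.999, as without D5-LSKCD201- replicate 1), and Hoxb1, short of the threshold with all libraries (-0.997), was called lower (-1.09). The Hox clusters were grouped by symbol after their values were seen.

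Erythroid genes leaned toward D5-LSKCD201-: 7 of 16 tested were called lower in D5-LSKCD201+ and 1, Epor, higher. Hbb-bh1, an embryonic beta globin, was at 10.7, 17.9 and 19.1 FPKM in D5-LSKCD201+ and at 34.03, 84.1 and 37.6 FPKM in D5-LSKCD201-. Gata1, the master regulator of red cells and megakaryocytes, was at 0.155, 0.5299 and 0.534 FPKM in D5-LSKCD201+ and at 3.700, 5.66 and 4.31 FPKM in D5-LSKCD201-. Both were lower in all D5-LSKCD201+ libraries, and replicate 2 was the highest of D5-LSKCD201- in both. They fell by 1.56 (adjusted p 0.006896, SE 0.36) and 1.98 (adjusted p 4.6e-05, SE 0.17), and without that library by 1.16 and 1.84. Hba-x, an embryonic alpha globin, was at 7.696 ± 3.52 against 13.1 ± 9.88 FPKM and was not called. Klf1, the erythroid Kruppel-like factor, was called lower (-1.14, adjusted p 0.000468, SE 0.15) but not under quantile normalization. Of the 14 genes of the megakaryocyte list, 7 passed the filter and were tested. Among these, 4 were called higher, including Itga2b and the endothelial list member Vwf. The 1 lower call was Cd9 (-1.07), lost without replicate 2 of D5-LSKCD201- (-0.92). The list summed to 179 to 193 FPKM per library in D5-LSKCD201+ and 236 to 327 in D5-LSKCD201-. Pf4, platelet factor 4, was at 1.75 ± 0.713 against 0.178 ± 0.0288 FPKM (log2 fold change 1.19) and Gp1ba at 2.39 ± 0.0431 against 0.194 ± 0.0982 FPKM (1.51). Among myeloid genes, Irf8 rose (9.25 ± 0.882 against 2.28 ± 0.2501 FPKM) and Cd68 fell (2.16 ± 0.203 against 12.6 ± 0.715 FPKM), while Mpo, the peroxidase of granulocyte precursors, was at 4.13 ± 0.235 against 5.81 ± 0.489 FPKM. In the mast cell and basophil list 3 of 9 genes passed the filter, of which Gata3 rose and Prg2 fell. Of 8 lymphoid genes tested, 3 rose and 3 fell, and Il7r, Flt3 and Rag1 were under the filter.

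Genes of naive pluripotency, which keep PSCs undifferentiated, were called lower in D5-LSKCD201+ in 28 of 30 cases and higher in none, with a median log2 fold change of -4.09. Zfp42 (ENSMUSG00000051176, chromosome 8, 43295062 to 43306980), the marker Rex1, was at 2.34, 3.59 and 2.52 FPKM in D5-LSKCD201+ and at 325, 374 and 316 FPKM in D5-LSKCD201-. Tdgf1 was at 2.04, 2.32 and 2.39 FPKM in D5-LSKCD201+ and at 236, 283 and 247 FPKM in D5-LSKCD201-. Both genes were high in all D5-LSKCD201- libraries and low in all D5-LSKCD201+ libraries. They fell by 6.48 (adjusted p 7.2e-08, SE 0.13) and 6.298 (adjusted p 3.3e-08, SE 0.09). Apart from Spp1, the gene not called was Klf2, at 51.6, 52.7 and 52.7 FPKM in D5-LSKCD201+ and at 111, 30.4 and 137 FPKM in D5-LSKCD201-. Replicate 2 lay under the D5-LSKCD201+ libraries and the other D5-LSKCD201- libraries above them, and without it Klf2 was called lower (-1.22). Klf2 is also expressed in endothelium, and it was chosen after its values were seen. The list summed to 1080.2 to 1272 FPKM per library in D5-LSKCD201+, of which Spp1 made up most, and to 6615 to 6858 in D5-LSKCD201- and 8704 to 9253 in mESC. The part of residual PSCs in the differences was not tested.

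Genes of the primed epiblast and primitive streak, the next stages on the route, were called lower in all 17 tested cases (median -4.18). Fgf5, a growth factor of the primed epiblast, was at 0.818, 0.883 and 1.11 FPKM in D5-LSKCD201+ and at 77.2, 87.6 and 76.6 FPKM in D5-LSKCD201-. Otx2, an epiblast and anterior transcription factor, was at 0.929, 1.48 and 1.998 FPKM in D5-LSKCD201+ and at 82.6, 83.05 and 75.9 FPKM in D5-LSKCD201-. T, the streak marker brachyury, was at 0.539, 0.202 and 0.395 FPKM in D5-LSKCD201+ and at 10.6, 4.93 and 9.77 FPKM in D5-LSKCD201-. All 3 genes were above 1 FPKM in every D5-LSKCD201- library, with T lowest in replicate 2, and lay lower in every D5-LSKCD201+ library. They fell by 5.39 (adjusted p 4.5e-08, SE 0.09), by 5.07 (adjusted p 3.4e-07, SE 0.16) and by 2.72 (adjusted p 7.2e-05, SE 0.26). In mESC, Fgf5 was at 0.457 FPKM, Otx2 at 9.85 and T at 0.2200, so D5-LSKCD201- lay above mESC in each. Fgf ligands in general, a family grouped by symbol after values were seen, fell in 7 of 9 cases and Wnt ligands in 5 of 8, with none higher.

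Primordial germ cell genes were called lower in 10 of 11 cases, and the remaining gene, Kit, was not called. Nanos3, an RNA-binding protein that germ cells need, was at 0.132, 0.148 and 0.0543 FPKM in D5-LSKCD201+ and at 12.03, 11.6 and 10.4 FPKM in D5-LSKCD201-. Dppa3, also called Stella, was at 0.278, 0.351 and 0.259 FPKM in D5-LSKCD201+ and at 69.5, 67.6 and 72.4 FPKM in D5-LSKCD201-. Both genes separated the groups, with D5-LSKCD201+ near 0, and fell by 3.47 (adjusted p 2.4e-07, SE 0.10) and 5.77 (adjusted p 3.3e-08, SE 0.08). Their means in mESC were 2.55 and 7.29 FPKM, under those of D5-LSKCD201-. Tfap2c (0.247 ± 0.0651 against 24.7 ± 2.52 FPKM), Prdm1 (0.651 ± 0.134 against 5.53 ± 0.403 FPKM), Alpl (-3.25) and Mael (-3.22) fell as well. Most of these genes are also expressed by PSCs or other early tissues.

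Among other lineages, epithelial genes fell in 18 of 20 cases (median -3.53). Epcam, an adhesion molecule of epithelia and PSCs, was at 1.38, 1.33 and 1.42 FPKM in D5-LSKCD201+ and at 103, 126 and 104 FPKM in D5-LSKCD201-. Cdh1, E-cadherin, was at 0.878, 0.882 and 0.518 FPKM in D5-LSKCD201+ and at 84.05, 47.7 and 85.9 FPKM in D5-LSKCD201-. Both were high in D5-LSKCD201- and low in D5-LSKCD201+, and they fell by 5.55 (adjusted p 4.5e-08, SE 0.09) and 5.35 (adjusted p 1.5e-06, SE 0.23). Ocln, a tight junction gene of epithelia and endothelia, was the 1 member that rose (7.28 ± 0.382 against 2.75 ± 0.338 FPKM, 1.15). Junction genes moved in both directions: of 9 claudin genes tested Cldn5 rose and 5 fell, of 8 connexin genes Gja4 and Gja5 rose and 5 fell, and 7 of 9 keratin genes fell. These 3 families were grouped by symbol after their values were seen. Of 18 endoderm and hepatoblast genes tested, 11 fell, among them Ttr (0.1398 ± 0.0531 against 1.36 ± 0.277 FPKM) and Apoa1 (0.132 ± 0.1497 against 4.47 ± 1.05 FPKM), the Ttr call being lost without D5-LSKCD201- replicate 1 (-0.97), and Afp and Alb were under the filter. The 11 include Epcam, Cldn6, Krt8 and Cdh1, which were also counted in the epithelial list. A further 4 genes were higher and 3 lower without a call, Sox17 among them. Of 7 neuroectoderm genes tested, Nes rose (1.295) and 4 fell, and Sox1 and Pax6 were under the filter.

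Smooth muscle and cardiac genes fell in 9 of 13 cases. Acta2, smooth muscle actin, was at 35.5, 42.3 and 40.3 FPKM in D5-LSKCD201+ and at 122, 185 and 121 FPKM in D5-LSKCD201-. Actc1, cardiac actin, was at 0.299, 0.316 and 0.292 FPKM in D5-LSKCD201+ and at 18.5, 40.6 and 16.9 FPKM in D5-LSKCD201-. They were higher in every D5-LSKCD201- library, with Actc1 highest in replicate 2. The differences were -1.804 (adjusted p 6.5e-05, SE 0.17) and -4.23 (adjusted p 1.8e-05, SE 0.30). The cardiac factors moved apart, Hand1 falling (0.208 ± 0.182 against 5.34 ± 2.96 FPKM) and Hand2 rising (13.9 ± 0.407 against 1.52 ± 0.104 FPKM). Trophoblast genes went both ways: besides Plac1, the genes Peg10 and Gata3 rose, and 6 fell, among them Prl2c2 (0.625 ± 0.1804 against 17.8 ± 13.5 FPKM, -3.04, and -4.04 without replicate 2 of D5-LSKCD201-). Stromal cells were present in the culture before the LSK sort, so their genes were read too. Of 22 mesenchymal and stromal genes tested, 6 rose and 2 fell. Those that rose included vimentin (Vim, 2.28), Zeb1 (2.25) and periostin (Postn, 1.697), and Pdgfra (0.676 ± 0.0307 against 2.61 ± 0.433 FPKM) and N-cadherin (Cdh2, -1.11) fell. Col1a1, the main fibroblast collagen, was at 30.3, 30.7 and 28.4 FPKM in D5-LSKCD201+ and at 24.9, 8.02 and 25.7 FPKM in D5-LSKCD201-, and Pdgfrb at 1.301 ± 0.0867 against 2.19 ± 0.874 FPKM. Of 10 genes of the preadipocyte-like OP9 cells, 4 rose, Pparg (13.5 ± 0.421 against 2.49 ± 0.927 FPKM), Lpl (13.1 ± 0.5302 against 4.44 ± 1.12 FPKM), Cd36 (3.63 ± 0.858 against 0.526 ± 0.131 FPKM) and Lepr (1.51 ± 0.1705 against 0.191 ± 0.0501 FPKM), some of which capillary endothelium also expresses, while Fabp4 was at 8.59 ± 1.64 against 5.84 ± 0.799 FPKM. Adipoq was under the filter, at 0.0699, 1.19 and 1.297 FPKM in D5-LSKCD201+ and at 0.107, 0 and 0 FPKM in D5-LSKCD201-. Summed, the OP9 list ran from 61.04 to 64.6 FPKM in D5-LSKCD201+ and from 29.4 to 32.5 in D5-LSKCD201-, and its part in the other differences was not tested.

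Most cell cycle genes did not pass the fold threshold. Of 34 DNA replication genes tested, 7 were called lower and none higher, against 13.9% of all genes called lower, and the median log2 fold change was -0.77 and the values of the groups were separate with D5-LSKCD201+ below in 29. The corresponding numbers for 35 mitosis genes were 6, -0.66 and 32, against 42.0% of all genes tested separate in that direction. Mcm2, a subunit of the replicative helicase, was at 82.8, 88.2 and 85.3 FPKM in D5-LSKCD201+ and at 167, 169 and 169 FPKM in D5-LSKCD201-. Plk1, a mitotic kinase, was at 116, 115 and 115 FPKM in D5-LSKCD201+ and at 156, 162 and 162 FPKM in D5-LSKCD201-. Both genes were lower in every D5-LSKCD201+ library than in any D5-LSKCD201- library, and neither was called, with differences of -0.97 (adjusted p 2.5e-06, SE 0.05) and -0.47 (adjusted p 7.1e-05, SE 0.04). Those that passed the thresholds included Mcm7 (-1.39), Mcm10 (-1.699), Orc1 (-1.57), Ccnb1 (-1.46), Kif23 (-1.02) and Cenpf (-1.14). Cdc20 and Ccnb2 were called lower but not without replicate 2 of D5-LSKCD201- (-0.96 and -0.95). The Ccnb2 call was also lost without D5-LSKCD201+ replicate 2 (-0.995), and that of Kif23 without D5-LSKCD201+ replicate 3 or D5-LSKCD201- replicate 1 (-0.96 and -0.99). Among genes of G1, the cyclin Ccne1 (-2.45), the kinase Cdk6 (-1.55) and the Myc relatives Mycn and Mycl (-4.24) fell, while Myc itself rose (93.6 ± 2.68 against 37.9 ± 2.83 FPKM, 1.29, adjusted p 3.7e-06, SE 0.07). The D-type cyclins Ccnd1, Ccnd2 and Ccnd3 were not called, with log2 differences of -0.71, -0.37 and 0.82. Of 6 CDK inhibitors tested, Cdkn1c, the imprinted inhibitor p57 of quiescent cells, was at 883, 878 and 884 FPKM in D5-LSKCD201+ and at 46.2, 51.9 and 49.3 FPKM in D5-LSKCD201-. It was higher in every D5-LSKCD201+ library and rose by 4.14 (adjusted p 3.3e-08, SE 0.05), and Cdkn1a and Cdkn1b were not called (-0.198 and 0.16).

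Imprinted genes, expressed from the allele of a given parent and many of them tied to embryonic growth, rose in 16 of 28 cases and fell in 3 (median 1.201, 1.09 without replicate 2). H19, a long non-coding RNA, was at 9.96, 9.08 and 10.1 FPKM in D5-LSKCD201+ and at 1.21, 0.6198 and 0.987 FPKM in D5-LSKCD201-. Igf2, the growth factor of the same locus, was at 1699, 1654 and 1675 FPKM in D5-LSKCD201+ and at 119, 92.98 and 128 FPKM in D5-LSKCD201-. Meg3, a non-coding RNA of the Dlk1 locus, was at 97.2, 91.6 and 85.3 FPKM in D5-LSKCD201+ and at 32.5, 16.1 and 31.9 FPKM in D5-LSKCD201-. In all 3 genes every D5-LSKCD201+ library was above every D5-LSKCD201- library, and the log2 fold changes were 2.48 (adjusted p 4.2e-06, SE 0.13), 3.88 (adjusted p 2.8e-07, SE 0.11) and 1.79 (adjusted p 0.000539, SE 0.25). Means in mESC were 0.578, 3.12 and 61.1 FPKM, and in FL 68.9, 43.3 and 6.74. Dlk1 (3.45), Mest (2.96), Plagl1 (3.32) and Igf2r (2.27) rose too, and Nnat (8.45 ± 0.375 against 43.6 ± 2.36 FPKM), Phlda2 (1.69 ± 0.486 against 24.8 ± 3.48 FPKM) and Ascl2 (0.3102 ± 0.163 against 11.2 ± 0.581 FPKM) fell. Among 9 genes of DNA methylation and its removal, Dnmt3b (14.99 ± 0.4995 against 119 ± 2.14 FPKM), Dnmt3l (-5.52) and Tet1 (-1.03), enzymes or cofactors that are high in early embryonic cells, fell, the Tet1 call being lost without D5-LSKCD201+ replicate 2 or D5-LSKCD201- replicate 1 or 3 (-0.96, -0.98 and -0.94). Tet3 was called higher (1.09) but not without D5-LSKCD201- replicate 2 (0.82). Lin28a, the RNA-binding protein of PSCs, was at 4.76 ± 0.0344 against 15.3 ± 8.28 FPKM (-1.33, adjusted p 0.0261, SE 0.42), and Lin28b, its relative in fetal blood, at 4.29 ± 0.279 against 3.86 ± 0.617 FPKM with no call. Without replicate 2 of D5-LSKCD201- the Lin28a difference was -1.87, and without any 1 of the other 5 libraries the call was lost, with adjusted p from 0.0675 to 0.0835 and differences from -1.33 to -1.05. With no filter on low values the call was lost too (adjusted p 0.0529). Of the 9 genes of their list, the chromatin regulators Hmga2 (1.16) and Arid3a (1.34) were called higher, Hmga2 not without D5-LSKCD201- replicate 2 (0.93).

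Genes of the vessel wall and of adhesion were read next. Of 40 extracellular matrix genes tested, 14 rose and 2 fell. Col4a1, a chain of basement membrane collagen, was at 444, 392 and 401 FPKM in D5-LSKCD201+ and at 45.6, 11.1 and 46.4 FPKM in D5-LSKCD201-. Sparc, a collagen-binding protein, was at 1429.8, 1394 and 1419 FPKM in D5-LSKCD201+ and at 334, 329 and 334 FPKM in D5-LSKCD201-. Both were higher in every D5-LSKCD201+ library, with replicate 2 the lowest of D5-LSKCD201- for Col4a1. They rose by 3.79 (adjusted p 0.000402, SE 0.50) and 2.09 (adjusted p 8.3e-08, SE 0.04), and Col4a1 by 3.13 without that library. Fibronectin (Fn1, 2.11), the laminin chain Lama4 (3.82) and nidogen (Nid1, 3.06) rose too, while Fbln1 (-2.19) and Ctgf (-1.02) fell. The Ctgf call was lost without D5-LSKCD201+ replicate 1 or D5-LSKCD201- replicate 3 (-0.98 and -0.99), or with FPKM rescaled to an equal sum in each library (-0.95). Of 14 integrins tested, 8 rose, among them the fibronectin receptor chains Itga5 (52.2 ± 1.11 against 10.9 ± 3.13 FPKM) and Itgb1 (225 ± 7.098 against 101 ± 2.29 FPKM), and Itgb5 and Itgb7 fell (-1.89 and -2.07).

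Glycolysis, interferon and antigen presentation genes followed. In glycolysis the hexokinases moved in opposite directions: Hk1 was at 61.4, 60.4 and 60.1 FPKM in D5-LSKCD201+ and at 22.5, 9.38 and 22.2 FPKM in D5-LSKCD201-, and Hk2 at 13.4, 13.6 and 13.4 FPKM in D5-LSKCD201+ and at 41.5, 29.1 and 47.4 FPKM in D5-LSKCD201-. Hk1 was higher and Hk2 lower in all D5-LSKCD201+ libraries, and Hk1 was lowest in replicate 2 of D5-LSKCD201-. Their log2 fold changes were 1.79 (adjusted p 0.00142, SE 0.30) and -1.45 (adjusted p 0.000181, SE 0.16). Of 19 glycolysis genes, Eno1 alone was called besides these, lower, and not without replicate 2. Interferon response genes rose in 8 of 19 cases, among them Irf7 (2.86 ± 0.364 against 0.6298 ± 0.0571 FPKM), Isg15 (7.08 ± 0.274 against 1.21 ± 0.336 FPKM) and Ifit1 (1.096), and Irf1 (-1.91) and Ifitm1 (-3.66) fell. Of 10 genes of MHC class I and antigen processing tested, B2m (401 ± 16.4 against 115 ± 15.1 FPKM) and H2-D1 (113 ± 2.04 against 31.7 ± 2.17 FPKM) rose, H2-K1 was not called (0.396) and Psmb9 fell (-1.24). Immediate early genes, which respond to handling within minutes, were called higher in 3 of 17 cases and lower in 1 (median 0.11), and without replicate 2 of D5-LSKCD201- higher in 2 and lower in 3 (median -0.104). Jun was at 126 ± 1.92 against 57.6 ± 6.38 FPKM (1.12) and Fos at 36.8 ± 1.47 against 68.01 ± 1.17 FPKM (-0.87, no call). Of 15 housekeeping genes, 13 were not called, among them Actb (0.65), Gapdh (-0.61) and Tbp (-0.72), while B2m rose and the transferrin receptor Tfrc fell (-2.16), and without replicate 2 of D5-LSKCD201- Gusb, chosen after its values were seen, was called higher too (1.04).

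**Figure D5:**
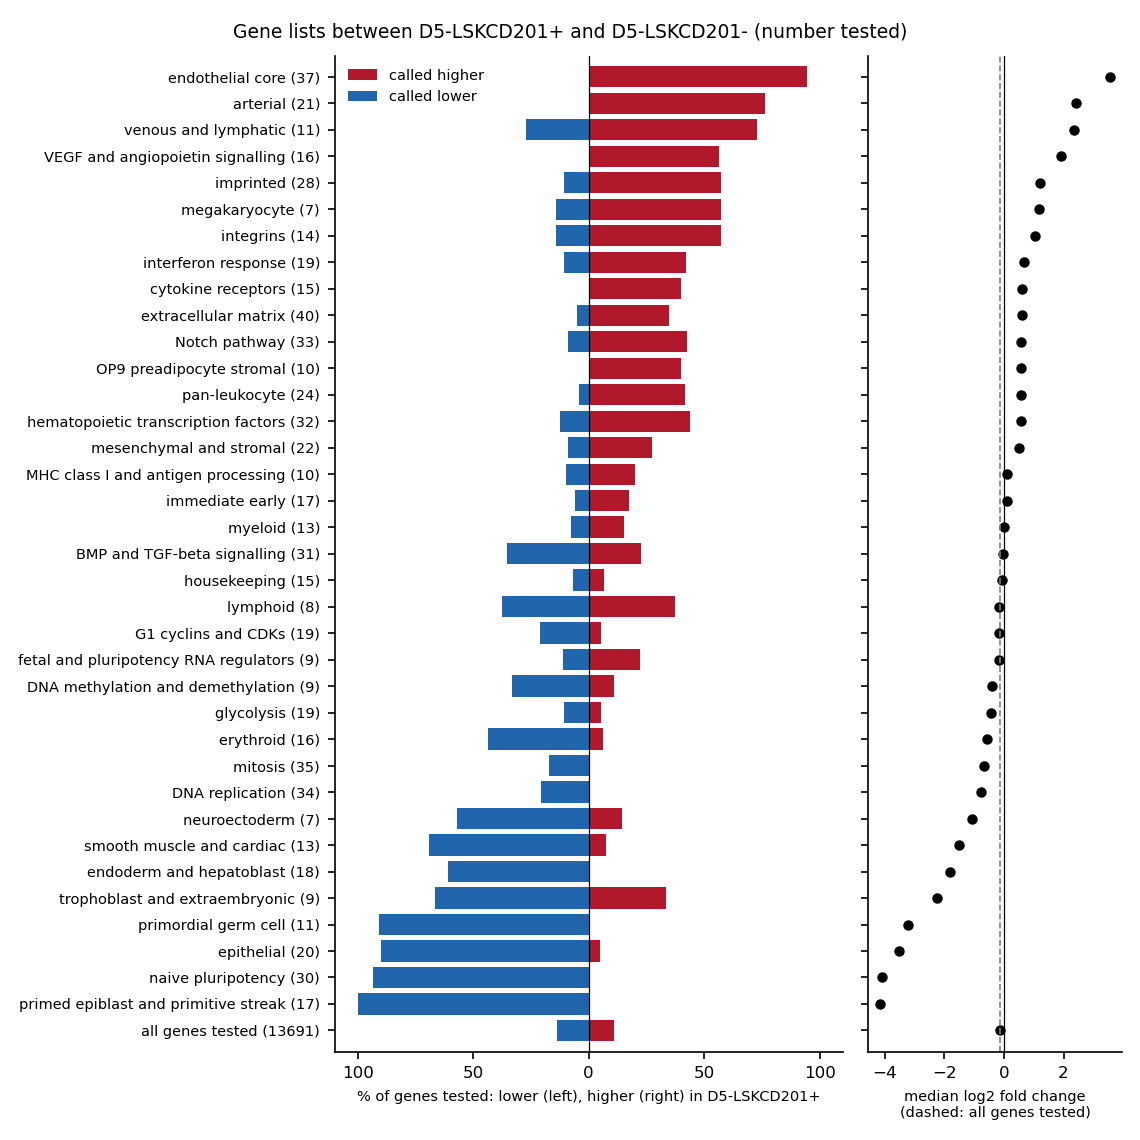
Left, the share (%) of tested genes of each list called higher (red, to the right) or lower (blue, to the left) in D5-LSKCD201+, with the number tested in parentheses, for lists with at least 7 tested genes and for all genes tested, and right, the median log2 fold change of the list. Lists run from endothelial core (35 of 37 higher) to primed epiblast and primitive streak (all 17 lower), against 10.8% higher and 13.9% lower over all genes.

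Set beside the other sorted groups, the genes that rose in D5-LSKCD201+ and those that fell had different levels elsewhere. Of the 1475 genes that rose, 59.3% had a mean of at least 1 FPKM in mESC, 77.1% in FL and 75.5% in BM, against 81.1%, 80.6% and 80.3% of all genes tested. For the 1904 genes that fell, the shares were 83.4%, 52.6% and 49.9%. Genes under 1 FPKM in both FL and BM made up 19.5% of those that rose, 43.7% of those that fell and 16.3% of all. In 49.8% of the genes that rose, D5-LSKCD201- was more than 2-fold above mESC, against 28.99% of those that fell and 19.9% of all. The endothelial genes Cldn5 and Plvap were at 3.25 and 9.17 FPKM in FL, against 429 and 1462 in D5-LSKCD201+, whereas the blood factor Spi1 was far higher in FL than in either D5 group. By chromosome, the median log2 fold change ran from -0.21 on chromosome 12 to 0.30 on chromosome MT.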

How the data were processed

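The 21 libraries of the series were made from TRIzol-extracted RNA. The submitters' processing notes name HISAT2 2.0.5, StringTie 1.3.3 and Cuffdiff 1.3.0, and the study's methods name the build GRCm38. Those notes name both mm9 and GRCm38, and the deposited gene positions match GRCm38, which is used here. The authors deposited FPKM per gene and library, with replicates not pooled, and no read counts, so depth is unknown and no counting interval is given. The scaling uses the library total, so very abundant genes lower all others. The 6 libraries of total cocultured cells, in a table of their own, were not used here.

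D5-LSKCD201+ and D5-LSKCD201- were compared on log2(FPKM + 1) with limma 3.58.1 (R 4.3.3, two-sided, trended prior variance), over genes that averaged 0.5 FPKM or more, with Benjamini-Hochberg adjustment over all 13691. A gene was called at an adjusted p under 0.05 and a log2 fold change of at least 1. On log2(FPKM + 1), the change of low genes is understated. Groups that do not overlap were counted separately, since the smallest exact two-sided permutation p for 3 against 3 is 0.1. In simulated data for this comparison with 13691 genes, 94% of 100 genes changed by a log2 fold of 1.5 and 99% of 100 changed by 3 were recovered, and 1.03% of the calls were false. Changes were placed only in genes well above the filter, and noise was drawn independently for each gene and library. The rates therefore do not cover low genes, the larger share of genes called here or a deviation shared by many genes of 1 library.

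Genes were named by rule: genes of the study, the 15 largest rises and falls, the first 4 of each of 40 lists with up to 4 more in each direction, and 10 genes on in a single group each way. The rule gave 330 genes, and the text names 260, of which 27 fall outside it. Members and lists were chosen with earlier results of these data known. Symbols on more than 1 row (37) were not merged. Alternatives were 15 settings of pseudocount, filter, scaling, prior, replicate block, samples fitted, threshold and single libraries left out. Tables and plots were made with Python 3.11.15.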

Additional observations from a re-analysis of the deposited data

How the results depend on the processing

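With the adjusted p alone and no fold threshold, 9349 genes were called, 3930 higher and 5419 lower in D5-LSKCD201+. With genes off at 0.05 FPKM instead of 0.1, 8 genes were on in D5-LSKCD201+ alone and 88 in D5-LSKCD201- alone, and at 0.2 FPKM 58 and 345. A pseudocount of 0.1 gave 1957 higher and 2508 lower. Among named genes it added calls for Bmp6 (2.09), Notch2 (-1.41) and Hoxb1 (-2.98). FPKM rescaled to an equal sum in each library gave 1902 and 2244, with 15045 genes tested. Rescaling ended the calls of Ctgf, Kif23, Cd9, Ccnb2, Cdc20 and Eno1. It added calls for Bmp6 (1.31), Gusb (1.07), Hoxb1 (-1.45) and Id2 (1.01). Quantile normalization gave 1716 and 1599, and turned the Ptprc difference, which was not called, to 0.12. It ended the calls of Klf1, Gfi1b, Pdgfra, Tet1, Ttr, Prg2, Ccnb2, Cdc20 and Eno1, and added a call for Bmp6 (1.14). Leaving out single libraries gave 1399 to 1553 genes higher and 1822 to 2013 lower, with 10334 to 11546 genes whose groups did not overlap, and moved Vegfa, not called, from -0.59 (without D5-LSKCD201- replicate 2) to 0.054 (without D5-LSKCD201- replicate 1), and Unc5b, not called, from -0.017 (without D5-LSKCD201- replicate 2) to 0.19. The Hprt difference, also not called, ran from -0.19 to 0.070 over the same fits, and was 0.0090 under quantile normalization and 0.027 with FPKM rescaled. The cause of these shifts was not tested, apart from the number of genes tested and the thresholds, which set the counts themselves.

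Libraries were not paired by replicate number in the main fit. Same-numbered deviations from the group means correlated at -0.15, -0.05 and 0.10 over 13691 genes. With 3 libraries per group these values cannot show whether same-numbered libraries came from the same culture. A fit with the replicate number as a block gave 1476 higher and 1905 lower. The low values of GC-rich genes in D5-LSKCD201- replicate 2 limit the precision of their group means, and the depth behind each value is unknown.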

Other observations

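Hprt, the X-linked purine salvage enzyme often used as a reference gene, was at 5.66, 6.09 and 5.86 FPKM in D5-LSKCD201+ and at 4.84, 7.41 and 6.32 FPKM in D5-LSKCD201-. The D5 groups overlapped and were not distinguished by limma (log2 difference -0.05, adjusted p 0.771). Both stood above the mESC level of 1.55 ± 0.357 FPKM (SD, n = 3) and far under FL (243 ± 6.48 FPKM) and BM (164 ± 3.34 FPKM).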
